A study of Homo sapiens with 16 samples.

Results

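The cytosolic ribosomal protein genes encode the proteins of the large (60S) and small (40S) ribosomal subunits and of the acidic stalk of the 60S subunit. They were taken as the genes of the count table whose symbol is RPL or RPS with a number, with or without a letter A, X or L and a further digit, or RPLP0 to RPLP2, and whose mean over all libraries was at least 100 counts. The naming rule found 83 symbols and the count limit left 82 genes of the 59081 in the table, 48 of the large subunit, 31 of the small subunit and 3 of the stalk. The rule used no difference between groups. RPL10L lay just inside the limit with a mean of 500.4 counts, and RPL3L just outside with 2.75. Of the 82 genes, 6 are paralogs whose symbol adds L or L1 to that of a core gene (RPL7L1, RPL10L, RPL22L1, RPL26L1, RPL39L and RPS27L), and the other 76 are called core genes here. The rule leaves out genes that encode or resemble ribosomal proteins under other names, of which RPSA, FAU and RPL36AL are described at the end.

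A ribosome needs 1 copy of nearly every core protein, and cells hold their mRNAs at high levels. Many of their mRNAs start with a C and an unbroken run of pyrimidines, the 5′ terminal oligopyrimidine (TOP) motif, through which the kinase complex mTORC1 and the protein LARP1 control their translation and stability. Some ribosomal proteins have a duplicated gene that is used in certain tissues, such as RPL10L and RPL39L in the testis, or that answers to other signals, such as RPS27L, a p53 target.

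The question was how these genes stood in resting human cells when the kinase DYRK1A, which helps to assemble the cell cycle repressor DREAM, was inhibited. All 16 libraries came from U2OS, an osteosarcoma line, which was grown to confluence and kept for 48 h without serum to make the cells quiescent. For the last 24 h the cells received harmine hydrochloride, a beta-carboline, at 10 µM in water, or INDY, a benzothiazole, at 25 µM in DMSO, and mock-treated cells received water or DMSO alone. Each of the 4 groups had 4 libraries of stranded poly(A) RNA, and no library served both compounds. Dose, vehicle and compound change together between the treated groups, so that a difference between the compounds cannot be told apart from one of dose or vehicle. The sources do not say whether replicates were separate cultures, and the p-values measure only how far these libraries spread, which may be technical variation.

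Totals were 44301642 to 65889487 estimated counts per library, with scaling factors of 0.982 to 1.022 by the trimmed mean of M-values (TMM). Of 6 markers of mesenchymal and osteoblast lineage, 5 were above 1 CPM (counts scaled to a common library total), with sums of 2789 to 3552 CPM per library, while COL1A2 stayed at or under 0.20 CPM. Markers of epithelial, blood and endothelial cells summed to at most 4.52, 0.677 and 4.68 CPM. Water replicate 4 was low across the ribosomal protein genes (median -0.074 on the log2 scale relative to the water mean). INDY replicate 1 was the lowest of its group. In these genes water 1 (median 0.00072) and INDY 3 (0.15, relative to the DMSO mean) lay within their groups. Over the whole table, the scatter between replicates (chi-square per gene) was smallest for water 2 and 3 (2.17) and INDY 2 and 4 (3.78). The main counts are also given without the others, water 1 and 4 and INDY 1 and 3, called below the libraries that stood apart. Water 1 and 4 were closer to each other (5.55) than to water 2 and 3 (7.48 to 15.1), so that which pair stood apart was a choice. Genes were tested with edgeR in 1 model of all groups over 20446 genes, and a gene is said to be higher, lower, to rise or to fall where the Benjamini-Hochberg adjusted p over all these genes was under 0.01. All 82 ribosomal protein genes were among those tested. CPM are TMM-scaled and relative to all poly(A) RNA of a library, and in such bulk RNA fewer cells with a transcript and less of it per cell cannot be told apart.

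The start sites show the shared feature of the family. The sequences below run from 40 bases before to 20 bases from the annotated transcript start (RefSeq, GRCh38.p14, 5′ to 3′ on the strand of the gene), with the start at base 41, and capitals mark a C that lies within 5 bases of the start and is followed by at least 4 pyrimidines, together with that run. They are shown for core genes and paralogs side by side, and for the core genes RPS12, RPS15 and RPL15, which were among the largest changes described below.
RPL22 (chr1:6199576-6199635, minus strand): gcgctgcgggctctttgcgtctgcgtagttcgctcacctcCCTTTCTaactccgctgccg
RPL22L1 (chr3:170870176-170870235, minus strand): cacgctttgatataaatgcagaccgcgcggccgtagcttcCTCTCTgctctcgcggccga
RPL26 (chr17:8383174-8383233, minus strand): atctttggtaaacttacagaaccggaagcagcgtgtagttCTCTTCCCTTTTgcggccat
RPL26L1 (chr5:172958689-172958748, plus strand): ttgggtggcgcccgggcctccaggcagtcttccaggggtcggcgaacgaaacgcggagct
RPS27 (chr1:153990722-153990781, plus strand): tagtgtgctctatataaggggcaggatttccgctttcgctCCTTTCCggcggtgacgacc
RPS27L (chr15:63157458-63157517, minus strand): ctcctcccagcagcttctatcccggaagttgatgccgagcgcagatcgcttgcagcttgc
RPL10 (chrX:154398025-154398084, plus strand): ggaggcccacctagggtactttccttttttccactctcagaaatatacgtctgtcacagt
RPL10L (chr14:46651762-46651821, minus strand): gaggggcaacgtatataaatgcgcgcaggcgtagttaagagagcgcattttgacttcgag
RPL39 (chrX:119791611-119791670, minus strand): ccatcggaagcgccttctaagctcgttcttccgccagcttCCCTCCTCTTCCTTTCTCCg
RPL7L1 (chr6:42879576-42879635, plus strand): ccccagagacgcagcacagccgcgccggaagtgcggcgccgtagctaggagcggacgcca
RPS12 (chr6:132814529-132814588, plus strand): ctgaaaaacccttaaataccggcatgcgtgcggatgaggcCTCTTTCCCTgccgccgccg
RPS15 (chr19:1438356-1438415, plus strand): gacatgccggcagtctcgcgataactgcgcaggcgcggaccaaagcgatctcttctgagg
RPL15 (chr3:23916505-23916564, plus strand): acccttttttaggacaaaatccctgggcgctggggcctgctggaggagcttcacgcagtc

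RefSeq promoters, each 250 bases before and 50 after the start, were matched by symbol for 66 of the 82 genes. A pyrimidine run as defined above stood at the start of 50 of the 66 (75.8%), against 5749 of all 27305 promoters of the same length (21.1%). Among core genes it was 49 of 61, and among the paralogs with an entry 1 of 5, RPL22L1. RPL26 and RPL22 carried the run at the first base, whereas RPL26L1, RPS27L, RPL10L and RPL7L1 had none within the window searched. RPL10, RPL15 and RPS15 are core genes without such a run at the start given by RefSeq.

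Other motifs were searched on both strands over the whole 300 bases. CGGAAG, the core of ETS family sites, was found in 40 of the 66 promoters (60.6%) against 19.9% of all promoters, and AAGATGGC, a YY1 motif, in 7 (10.6%) against 3.03%. GGGCGG, an Sp1 motif, was found in 35 (53.0%) against 44.6%, and the TATA box letters TATAAA in 7 (10.6%) against 11.95%. CACGTG, the E-box bound by MYC and MAX, was in 4 (6.06%) against 7.43%. TTTGAA, the cell cycle homology region (CHR) through which DREAM represses many promoters, was in 6 (9.09%) against 15.4%. Among the promoters of the 12931 genes tested that had an entry, the shares were 22.7% for the pyrimidine run, 29.5% for CGGAAG, 4.71% for AAGATGGC, 65.6% for GGGCGG, 6.69% for TATAAA, 9.56% for CACGTG and 10.5% for TTTGAA. Against these, the ribosomal protein promoters held GGGCGG less often and TATAAA more often, in the reverse order of that given by all promoters. These are letter matches and not measured sites, CGGAAG can share letters with GGGCGG or AAGATGGC where they adjoin, and the differences in share were not tested.

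Core genes were among the most abundant of the cell. Levels between genes are compared as mean CPM per kilobase of the MANE Select or canonical transcript of GENCODE 44. On this scale the median core gene stood at 894 in water-treated and 967 in harmine-treated cells, and at 909.9 and 1012 in those given DMSO and INDY. Of the 100 genes with the highest level per kilobase over all groups, 55 were ribosomal protein genes. RPS18, RPLP0 and RPL41 stood highest, with means of 2914, 2673 and 2635 CPM per kilobase over the 4 groups, and RPL28 was the lowest core gene with 83.7 to 104. The highest core gene exceeded the lowest by 32.7 times with water, and by 30.5, 32.8 and 29.7 times with harmine, DMSO and INDY. On this scale the paralogs lay below every core gene, from 12.6 (RPL10L) to 58.7 (RPL22L1) with water. The order and the range depend on the length of the transcript taken for each gene, such as 4209 bases for RPL28 and 7573 for RPL37. By mean count over all libraries the paralog RPL7L1 (11933.5) lay above the core gene RPS28 (8344), and RPL28 (21118) was not the lowest core gene.

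**Figure D1:**
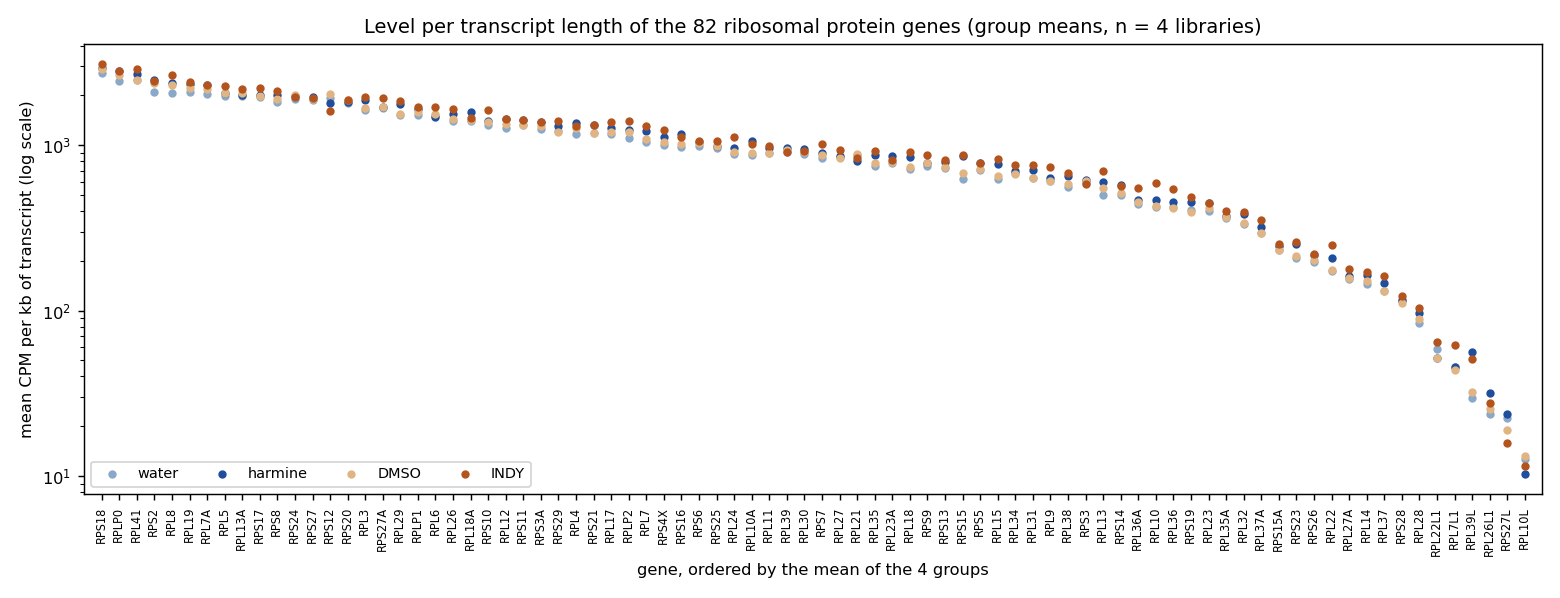
Mean level of each of the 82 genes in the 4 groups (n = 4 libraries each), in CPM per kilobase of transcript on a log axis, with genes ordered by the mean of the groups. RPS18, RPLP0 and RPL41 lead, RPL28 is the last core gene, and the 6 paralogs form the low end.

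Together the 82 genes took 7.37 ± 0.264% of a library with water and 7.87 ± 0.0757% with harmine (SD, n = 4 each). They took 7.60 ± 0.107% with DMSO and 8.29 ± 0.271% with INDY. The single water libraries had 7.40, 7.59, 7.50 and 6.99%, and the harmine libraries 7.81, 7.93, 7.81 and 7.95%. The DMSO libraries had 7.65, 7.72, 7.54 and 7.49%, and the INDY libraries 7.96, 8.44, 8.18 and 8.57%. Every treated library was above every library of its own mock-treated group, and the differences of the means were 0.506 percentage points for harmine and 0.688 for INDY, 1.07 and 1.09 times the mock-treated mean. DMSO and water differed by 0.230 points and overlapped. Water replicate 4 was the lowest of all 16 libraries, and without it the water mean was 7.50%. Mitochondrially encoded genes took 3.23% of that library and 2.70 to 2.81% of the other water libraries, and 3.02 to 3.49% of the harmine libraries. The other libraries had 2.73 to 3.46% with DMSO and 2.61 to 3.22% with INDY. A denominator of protein-coding nuclear genes, which leaves them out, gave 7.78% for water and 8.35% for harmine, and 8.03% for DMSO and 8.75% for INDY. No test was run on the summed share.

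**Figure D2:**
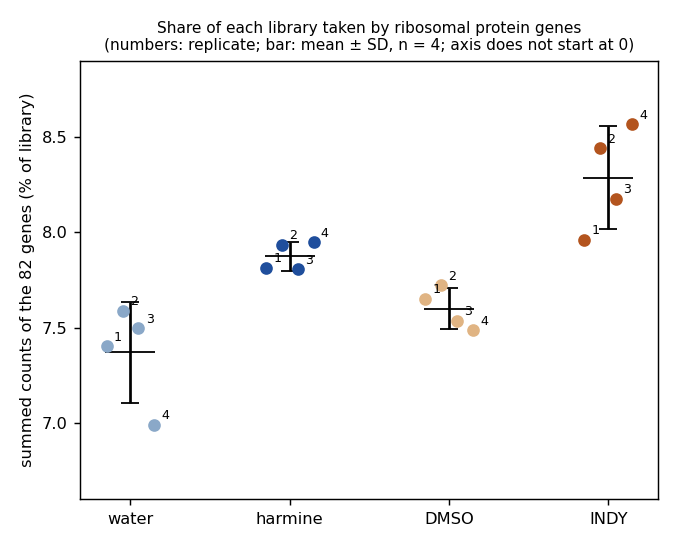
Summed counts of the 82 genes as a percentage of the total of each library, 1 point a library with its replicate number, and the group mean ± SD (n = 4); the axis starts above 0. The harmine points (7.81 to 7.95%) lie above the water points (6.99 to 7.59%) and the INDY points (7.96 to 8.57%) above the DMSO points (7.49 to 7.72%).

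With harmine most ribosomal protein genes moved up by a small step. Of the 82 genes 47 rose (57.3%), 2 fell and 33 did not pass, where 24.9% of all genes tested were higher and 22.8% lower. The median log2 fold change was 0.13, a 1.09-fold level, against 0.015 over all genes tested. Of the 82 estimates 77 were above 0, as were 10559 of the 20446 of all genes tested. RPL39L alone passed with a change of at least 1.5-fold, as did 16.3% of all genes tested. In 52 genes every harmine library was above every water library, and in 2 (RPL10L and RPL22L1) every harmine library was below, where 28.6% and 26.4% of all genes tested separated in these directions. Large subunit core genes rose in 28 of 43 cases with a median log2 fold change of 0.16, and small subunit core genes in 14 of 30 with a median of 0.11. All 3 stalk genes rose. Without water replicates 1 and 4 the counts were 39 higher and 3 lower, with a median of 0.10 against 0.017 over all genes tested. With library totals in place of TMM factors they were 35 higher and 4 lower, with a median of 0.083 against -0.030. No share of all genes called is given for either fit.

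The 4 largest rises with harmine were those of RPL39L, RPS15, RPL26L1 and RPL15. RPL39L, the paralog of the exit tunnel protein RPL39 (chr3:187120948-187180908, 3 exons), had 21.2, 23.4, 23.03 and 19.0 CPM in the water libraries and 38.0, 42.1, 41.8 and 42.7 in the harmine libraries. Every harmine library was well above every water library (log2 fold change 0.92, SE 0.054, adjusted p = 6.89e-11). RPS15, a protein of the head of the small subunit, had 329, 316, 303 and 301 CPM with water and 405, 431, 433 and 455 with harmine (log2 fold change 0.47, SE 0.041, adjusted p = 1.57e-08). The groups did not overlap, and RPS15 was the core gene with the largest rise, though 21.4% of the 100-base stretches of its transcript also occur in another gene. RPL26L1 went from 17.2 ± 1.22 to 22.96 ± 0.933 CPM (SD, n = 4 each; log2 fold change 0.42, SE 0.055, adjusted p = 2.91e-06), with 21.3% of its stretches shared. RPL15, a large subunit protein that is needed for processing of the 60S rRNA, went from 1351 ± 38.9 to 1648 ± 27.0 CPM (log2 fold change 0.29, SE 0.031, adjusted p = 2.11e-07).

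The 2 genes that fell with harmine were both paralogs. RPL10L, a copy of RPL10 with a single exon (chr14:46651010-46651781), had 9.74, 9.56, 10.4 and 9.20 CPM with water and 8.42, 7.62, 8.44 and 7.33 with harmine (log2 fold change -0.29, SE 0.062, adjusted p = 0.000552). It was the least abundant of the 82 genes. RPL22L1 had 113, 112, 111 and 111 CPM with water and 100.4, 96.9, 95.5 and 98.8 with harmine (log2 fold change -0.19, SE 0.056, adjusted p = 0.00693). All harmine libraries were below all water libraries in both genes, but the call of RPL22L1 was lost when harmine replicate 2 or 3 or water replicate 1 or 4 was left out (log2 fold change -0.20 to -0.18, adjusted p = 0.0113 to 0.0178).

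With INDY most of these genes were also higher. Of the 82 genes 60 rose (73.2%), 3 fell and 19 did not pass, where 33.2% of all genes tested were higher and 33.4% lower. The median log2 fold change was 0.17, a 1.12-fold level, against -0.0080 over all genes tested. Of the 82 estimates 74 were above 0, as were 10125 of the 20446 of all genes tested. RPL39L alone passed with a change of at least 1.5-fold, as did 33.7% of all genes tested. In 56 genes every INDY library was above every DMSO library and in 3 every one was below, where 33.4% and 34.1% of all genes tested separated in these directions. Large subunit core genes rose in 36 of 43 cases with a median log2 fold change of 0.20. Small subunit core genes rose in 19 of 30, with a median of 0.14, and 1 of them, RPS12, fell. INDY replicate 1 lay closer to the DMSO libraries than the other INDY libraries did, with a median of 0.10 on the log2 scale relative to the DMSO mean against 0.15 to 0.22. Without INDY replicates 1 and 3 there were 67 higher and 2 lower, with a median of 0.21 against -0.0090 over all genes tested. No share of all genes called is given for this fit.

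RPL39L, RPL22, RPL7L1 and RPL10 rose the most with INDY. RPL39L had 23.1, 23.1, 23.9 and 23.8 CPM with DMSO and 36.2, 37.6, 36.3 and 38.6 with INDY (log2 fold change 0.66, SE 0.054, adjusted p = 1.94e-09). RPL22, a large subunit protein that is not essential for translation, had 366, 359, 359.9 and 359 CPM with DMSO and 490.3, 527, 487 and 537 with INDY (log2 fold change 0.50, SE 0.036, adjusted p = 3.07e-10). The INDY libraries of both genes lay above all DMSO libraries without overlap. RPL7L1, which takes part in the assembly of the 60S subunit, had 198, 194, 203 and 191 CPM with DMSO and 272, 275, 274 and 289 with INDY (log2 fold change 0.50, SE 0.028, adjusted p = 8.96e-12). RPL10, which joins the 60S subunit as one of its last proteins, had 939.7, 941, 918 and 901 CPM with DMSO and 1232, 1264, 1288 and 1317 with INDY (log2 fold change 0.46, SE 0.026, adjusted p = 8.93e-12). Both again separated the groups. The rises of RPL15 (0.33) and RPS15 (0.35) on the log2 scale were also called with INDY (adjusted p = 1.13e-08 and 3.01e-07).

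The genes that fell with INDY were RPS12, RPS27L and RPL10L. RPS12, a protein of the head of the small subunit (chr6:132814569-132817564), had 1081, 1039.5, 977 and 979.5 CPM with DMSO and 758, 836, 791 and 832 with INDY (log2 fold change -0.34, SE 0.043, adjusted p = 7.48e-07). It was the one core gene of the 76 called lower with either compound, and no INDY library reached the DMSO libraries. RPS27L had 123, 117, 114 and 112 CPM with DMSO and 95.4, 93.0, 101 and 95.1 with INDY (log2 fold change -0.28, SE 0.041, adjusted p = 6.41e-06), again without overlap. RPL10L had 10.6, 10.3, 10.5 and 9.56 CPM with DMSO and 8.82, 9.42, 8.27 and 8.87 with INDY (log2 fold change -0.21, SE 0.062, adjusted p = 0.0044). The groups did not overlap, but this call was lost on leaving out DMSO replicate 1, 2 or 3 or INDY replicate 1, 3 or 4 (log2 fold change -0.21 to -0.18, adjusted p = 0.0101 to 0.0188).

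**Figure D3:**
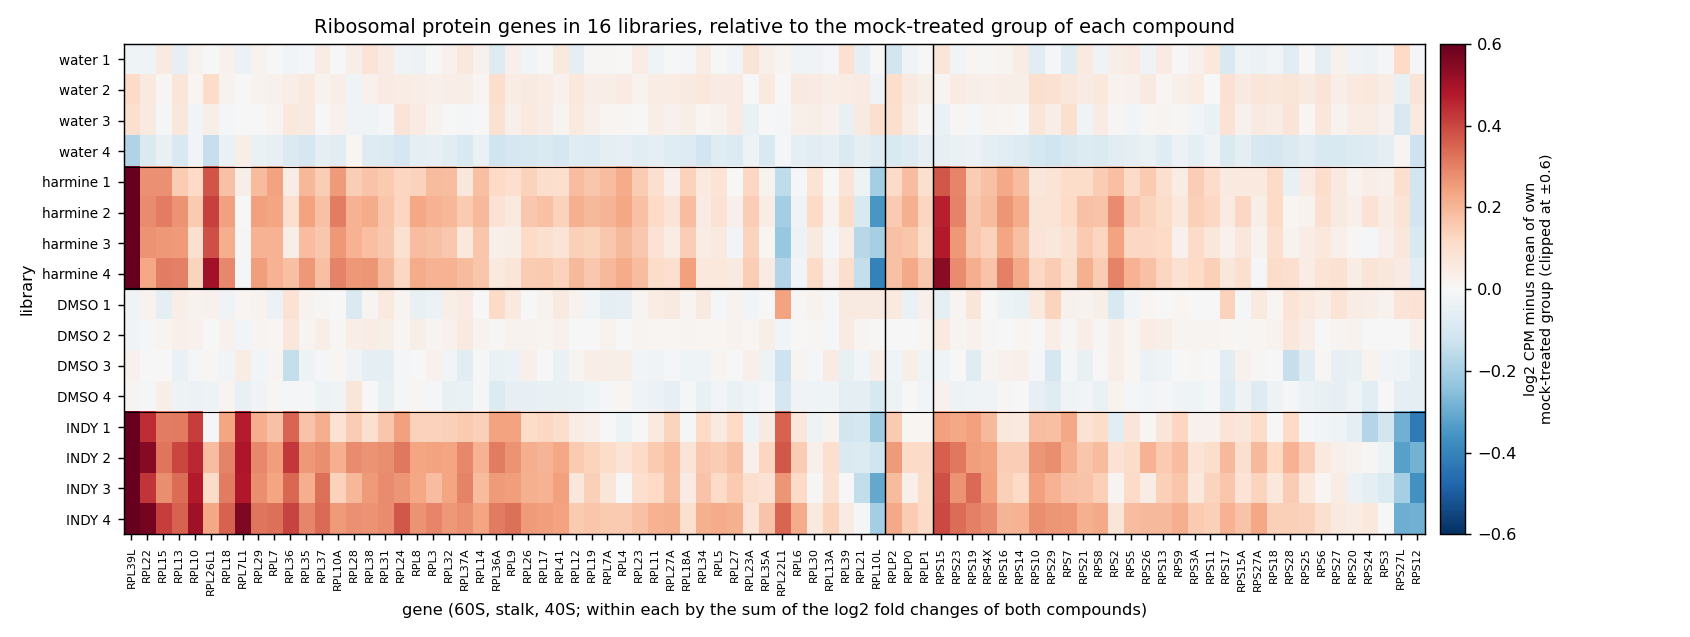
Log2 CPM of the 82 genes in each of the 16 libraries, minus the mean of the mock-treated group of the same compound (colour, clipped at ±0.6); rows are libraries and columns are genes of the 60S subunit, the stalk and the 40S subunit. Most treated rows are red in most columns, RPL39L is the strongest column, RPS12 and RPS27L are blue with INDY, and water 4 is blue almost throughout, with 3 of 82 genes above the water mean.

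Both compounds raised 38 of the 82 genes, where 12.1% of all genes tested were higher with both. Of the others, 9 rose with harmine alone by the threshold, 21 with INDY alone, 2 fell with INDY alone, 1 fell with both (RPL10L) and 1 fell with harmine and rose with INDY (RPL22L1). For these counts and that of genes passing with neither, no share over all genes was computed, and they are not read as a trait of these genes. Taken singly, 24.9% of all genes tested were higher and 22.8% lower with harmine, and 33.2% and 33.4% with INDY. The 10 that passed with neither were RPL21, RPL30, RPL39, RPS3, RPS6, RPS18, RPS20, RPS24, RPS25 and RPS27, of which those outside the named genes are listed after their values were seen. Among core genes the effect of INDY was larger in genes of lower level per kilobase (Spearman rho -0.409 over 76 genes), and that of harmine showed little of this (-0.116). These are descriptions over genes that share the same libraries, and the level per kilobase depends on the transcript length taken. Genes with over 20% of their transcript stretches shared with another gene rose in 15 of 25 cases with harmine and 14 of 25 with INDY, and the others in 32 and 46 of 57.

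Genes with and without the pyrimidine run are given side by side. Of the 50 genes with a run at the start, 28 rose with harmine and 37 with INDY, with medians of 0.12 and 0.17 on the log2 scale. Of the 16 with a promoter entry but no such run, 8 rose with harmine and 12 with INDY, with medians of 0.11 and 0.21. RPL22L1 has the run and fell with harmine, and RPS12 has it and fell with INDY, whereas RPL10L and RPS27L do not have it. In the 7 genes with the YY1 letters the median change on the log2 scale was 0.022 for harmine and 0.11 for INDY. In the 59 without them it was 0.13 and 0.18. The 4 genes with the E-box letters had medians of 0.016 and 0.14, and the 62 without them 0.12 and 0.18. The difference between these groups of genes was not tested.

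**Figure D4:**
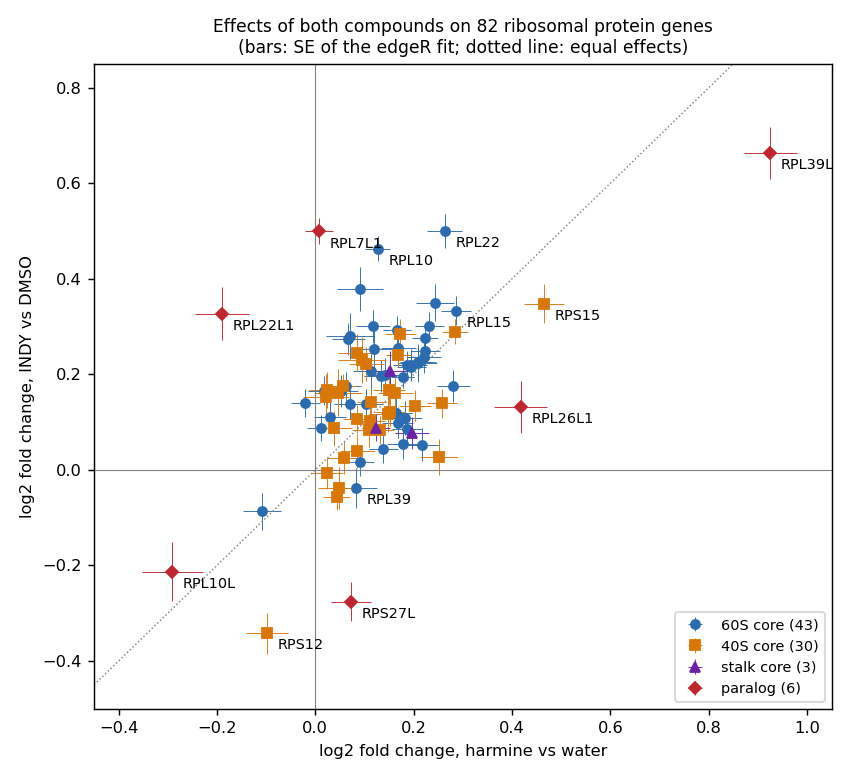
Log2 fold change of each gene with INDY against DMSO (vertical) and with harmine against water (horizontal), with standard errors from the edgeR fit; the dotted line marks equal effects. Most core genes lie in a cloud between 0 and 0.4 on both axes, and RPL39L, RPL26L1, RPL22L1, RPL7L1, RPS27L, RPL10L, RPL10, RPL22, RPS12 and RPS15 are among those outside it.

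The effects of the compounds were compared directly by their difference in the same model, at the unequal doses given. The effect of harmine was above that of INDY in 6 of the 82 genes and below it in 10, where 28.1% and 26.4% of all genes tested were called in these directions, with a median over the 82 genes of -0.025 (log2). Without INDY replicates 1 and 3 the counts were 1 above and 18 below, and without water replicates 1 and 4 they were 3 and 18. No share of all genes called is given for either fit. The 2 widest differences below 0 were those of RPL22L1 (log2 difference -0.52, SE 0.079, adjusted p = 1.43e-05) and RPL7L1 (log2 difference -0.49, SE 0.039, adjusted p = 3.80e-09). RPL22L1 fell with harmine and rose with INDY, from 98.4 ± 11.99 CPM to 124 ± 3.95 CPM (log2 fold change 0.33, SE 0.056, adjusted p = 3.26e-05). DMSO replicate 1 had 116 CPM and the other DMSO libraries 89.95 to 96.7, against 118 in the lowest INDY library. RPL7L1 had 204 ± 4.53 CPM with water and 205 ± 2.88 with harmine, which did not pass (log2 fold change 0.0074, SE 0.028, adjusted p = 0.835). The sign of that last estimate turned under 7 alternatives of processing and on leaving out single libraries. RPL10 and RPL22 also rose less with harmine than with INDY, with differences of -0.34 and -0.24 on the log2 scale (adjusted p = 1.98e-07 and 0.000438).

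The widest differences above 0 were those of RPS27L (log2 difference 0.35, SE 0.058, adjusted p = 3.50e-05) and RPL26L1 (log2 difference 0.29, SE 0.078, adjusted p = 0.00347). RPS27L had 149, 133, 129 and 139 CPM with water and 147, 145, 144 and 142 with harmine, which overlapped and did not pass (log2 fold change 0.072, SE 0.04, adjusted p = 0.137). RPS27L was also called lower with DMSO than with water, as given below. RPL26L1 had 18.6, 18.3, 18.4 and 17.9 CPM with DMSO and 18.1, 20.8, 19.8 and 21.5 with INDY (log2 fold change 0.13, SE 0.055, adjusted p = 0.0384). INDY replicate 1 lay within the DMSO values, and without it the rise of RPL26L1 with INDY passed (log2 fold change 0.18, adjusted p = 0.00684). Its difference between the compounds was no longer called without DMSO replicate 3 or harmine replicate 4 (0.24 to 0.27, adjusted p = 0.0108 to 0.0149). RPL39L rose more with harmine (log2 difference 0.26, SE 0.076, adjusted p = 0.00553), a call lost in 9 of the 16 fits that left out 1 library (0.23 to 0.26, adjusted p = 0.0107 to 0.0209). The estimate of RPS12 with harmine did not pass (log2 fold change -0.10, SE 0.043, adjusted p = 0.0572) and lay above that with INDY (log2 difference 0.24, adjusted p = 0.0017). Without water replicate 4 its estimate with harmine passed as a fall (log2 fold change -0.14, adjusted p = 0.00608).

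Within pairs of core gene and paralog the balance moved in both directions. As a share of the pair per kilobase of transcript, RPL39L made up 3.15 ± 0.268% with water and 5.51 ± 0.268% with harmine, and 3.32 ± 0.185% and 5.29 ± 0.212% for DMSO and INDY (SD, n = 4 each). RPL39 itself had 356 ± 20.3, 377 ± 7.83, 366 ± 14.9 and 357 ± 18.4 CPM in the same order and passed with neither compound (adjusted p = 0.0958 and 0.419). RPL22L1 made up 25.4 ± 0.920% of its pair with water and 19.9 ± 0.470% with harmine, where RPL22 rose from 356 ± 17.1 to 428 ± 6.42 CPM (log2 fold change 0.26, SE 0.036, adjusted p = 4.05e-06). With DMSO and INDY its share was 22.8 ± 1.93% and 20.8 ± 0.650%, with both genes called higher.

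RPL10L made up 2.88 ± 0.150% of its pair with water and 2.18 ± 0.182% with harmine, and 3.01 ± 0.0979% with DMSO and 1.91 ± 0.124% with INDY. RPL10 rose with harmine from 917 ± 12.7 to 1001 ± 17.7 CPM (log2 fold change 0.13, SE 0.026, adjusted p = 0.000318). RPL7L1 went from 3.84 ± 0.118% of its pair with DMSO to 4.54 ± 0.0899% with INDY, and was at 4.17 ± 0.174% with water and 3.61 ± 0.0365% with harmine. The mock-treated groups also differed here, with at most 3.97% in a DMSO library and at least 4.05% in a water library. RPL7 rose with both compounds (log2 fold changes 0.22 and 0.25, adjusted p = 2.64e-06 and 3.27e-07), with 53.4% of its transcript stretches shared with another gene. RPL26L1 took 1.68 ± 0.0499% and 2.03 ± 0.0692% of its pair with water and harmine, and 1.73 ± 0.0299% and 1.65 ± 0.0541% with DMSO and INDY. RPL26 rose with INDY (0.20, adjusted p = 4.73e-05) and with harmine (0.14, adjusted p = 0.00203), the latter not without harmine replicate 2 or 4 (0.12 each, adjusted p = 0.0134 to 0.0159) or with library totals (adjusted p = 0.0232), and 60.6% of its stretches are shared. RPS27L took 1.19 ± 0.0947% of its pair with water and 1.199 ± 0.0325% with harmine. It took 0.993 ± 0.0106% with DMSO and 0.807 ± 0.0315% with INDY. Every DMSO library was below every water library in this share, so that the mock-treated groups also differed. RPS27 passed with neither compound (log2 fold changes 0.058 and 0.026, adjusted p = 0.15 and 0.499). The size of a share depends on the transcript lengths taken, such as 6110 bases for RPS27L and 352 for RPS27. By mean count over all libraries RPS27L had 6700.9 and RPS27 36513.9. These shares of pairs were not tested.

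**Figure D5:**
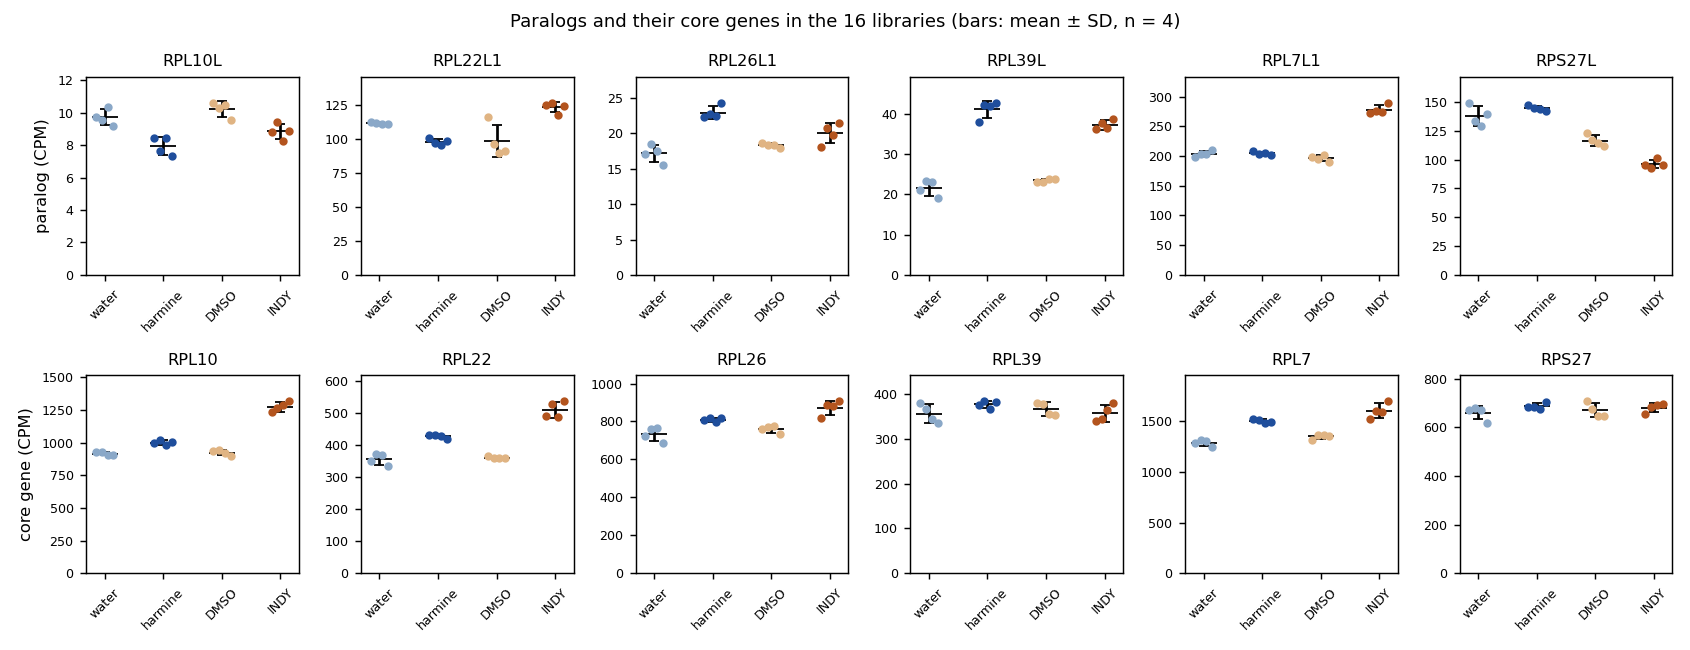
CPM of the 6 paralogs (upper row) and of their core genes (lower row) in every library, with the group mean ± SD (n = 4); all axes start at 0 and are scaled to each gene. RPL39L is higher with both compounds, RPL26L1 with harmine, RPL7L1 with INDY, and RPL22L1 is lower with harmine and higher with INDY.

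The genes named for their roles had small estimates. RPS6, the protein of the small subunit that S6 kinases phosphorylate, had 1356 ± 78.6 CPM with water and 1439 ± 19.6 with harmine, and 1416 ± 33.7 with DMSO and 1454 ± 51.6 with INDY, and passed with neither (log2 fold changes 0.085 and 0.039, adjusted p = 0.0471 and 0.333). RPL5 and RPL11, which bind the 5S rRNA and can bind the p53 regulator MDM2, rose with INDY by 0.14 and 0.14 on the log2 scale (adjusted p = 0.000683 and 0.000704). With harmine RPL5 had a log2 fold change of 0.071 (adjusted p = 0.0646) and RPL11 rose by 0.10 (adjusted p = 0.00903). The call of RPL11 was lost on leaving out any 1 of the 8 libraries of harmine and water (0.083 to 0.10, adjusted p = 0.0159 to 0.055), and under 6 other scalings or filters (adjusted p = 0.0105 to 0.121).

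The stalk genes encode the proteins that recruit translation factors to the ribosome. RPLP0 went from 2701 ± 113 to 3094 ± 58.3 CPM with harmine (log2 fold change 0.20, SE 0.034, adjusted p = 7.33e-05), and from 2929 ± 63.5 to 3089.8 ± 148 with INDY, which did not pass (adjusted p = 0.0491). Of its transcript stretches 33.3% are shared. RPLP1 rose with both (log2 fold changes 0.12 and 0.089, adjusted p = 0.000951 and 0.0081). Its call with harmine was lost without harmine replicate 4 (0.10, adjusted p = 0.0126), and that with INDY in 6 fits that left out DMSO replicate 2, 3 or 4 or INDY replicate 2, 3 or 4 (0.081 to 0.091, adjusted p = 0.0148 to 0.0272). Library totals and no filter also ended the former (adjusted p = 0.0215 and 0.011), and library totals (0.0498), no filter (0.0733), upper-quartile factors (0.0541) and the 8 libraries compared alone (0.0341) ended the latter. RPLP2 rose with harmine (log2 fold change 0.15, SE 0.043, adjusted p = 0.00506) and with INDY (log2 fold change 0.21, SE 0.043, adjusted p = 0.000261). The former call was lost without harmine replicate 2, 3 or 4 or water replicate 1 or 4 (0.12 to 0.14, adjusted p = 0.0207 to 0.0256), and with library totals (adjusted p = 0.0409), upper-quartile factors (0.013) and the 8 libraries compared alone (0.0174).

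Of the 3 genes of highest level, RPS18, a small subunit protein, had 1500.2 ± 77.6 CPM with water and 1617 ± 11.5 with harmine (log2 fold change 0.11, SE 0.035, adjusted p = 0.0118), and 1594 ± 26.0 with DMSO and 1688 ± 75.2 with INDY (adjusted p = 0.0388). It passed with INDY when INDY replicate 1 was left out (0.11, adjusted p = 0.00798). RPL41, the smallest ribosomal protein, went from 1684 ± 57.3 to 1943 ± 87.6 CPM with INDY (log2 fold change 0.21, SE 0.037, adjusted p = 5.42e-05). With harmine its estimate was 0.11 (adjusted p = 0.0125), which passed without water replicate 1 (0.13, adjusted p = 0.00785).

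The fits without the libraries that stood apart have fewer control or treated libraries, and the part of that smaller number in the lost calls was not tested. Without water replicates 1 and 4, harmine no longer raised RPL11 (0.063, adjusted p = 0.154), RPL26 (0.087, adjusted p = 0.0536), RPLP1 (0.10, adjusted p = 0.0161) or RPLP2 (0.056, adjusted p = 0.181) by the threshold, and RPL22L1 no longer fell (-0.19, adjusted p = 0.0379). In the same fit RPS12 fell (-0.16, adjusted p = 0.00517) and RPS27L rose (0.14, adjusted p = 0.00691) with harmine. Without INDY replicates 1 and 3 the fall of RPL10L with INDY was not called (-0.16, adjusted p = 0.0639), while RPLP0 (0.14, adjusted p = 0.00132), RPS18 (0.14, adjusted p = 0.002) and RPL26L1 (0.21, adjusted p = 0.00341) rose. The differences between the compounds of RPL26L1 and RPL39L were called in neither of these fits, and that of RPS12 was not called without INDY replicates 1 and 3 (0.17, adjusted p = 0.0206).

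The mock-treated groups differed in few of these genes, as in few of all genes tested. DMSO was above water in RPL8 and RPS2 and below it in RPS27L, and the other 79 did not pass, where 1.58% of all genes tested were higher and 2.71% lower. The median log2 difference was 0.043, against -0.0016 over all genes tested. It was 0.020 without water replicate 4 and 0.0099 without water replicates 1 and 4. In these fits 12 and 22 of the 82 estimates changed sign. In the fit of all libraries 69 of the 82 estimates were above 0, as were 10124 of the 20446 of all genes tested. Of the 82 genes 20 had an unadjusted p under 0.05, a count for which no share over all genes was computed. In 13 genes every DMSO library was above every water library and in 1 every one was below. Of all 20446 genes tested, 1995 and 2080 separated in these directions. RPS27L had 138 ± 8.73 CPM with water and 116 ± 4.70 with DMSO (log2 difference -0.24, SE 0.041, adjusted p = 0.00117). RPL8 and RPS2 had log2 differences of 0.15 and 0.19 (adjusted p = 0.00549 and 0.00385). RPS27L was the only call left when DMSO replicate 2, 3 or 4 or water replicate 4 was left out. Without water replicates 1 and 4 edgeR called 0 of the 82 genes. In that fit 7 had an unadjusted p under 0.05, again with no share over all genes computed.

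Of the genes outside the naming rule, FAU encodes RPS30 fused to a ubiquitin-like protein. FAU rose with both compounds, from 289 ± 13.5 to 344 ± 4.64 CPM for harmine (log2 fold change 0.25, adjusted p = 1.39e-06) and from 294 ± 2.21 to 349 ± 10.9 with INDY (0.25, adjusted p = 7.58e-07). RPL36AL rose with INDY alone by the threshold (0.18, adjusted p = 6.88e-05), and RPSA passed with neither.

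Other genes of translation and ribosome assembly did not all follow. Of 15 other genes whose mRNAs are known to carry a TOP motif, most of them translation factors, 7 rose and 1 fell with harmine (median log2 fold change 0.11), and 6 rose and 5 fell with INDY (0.039), beside 24.9% higher and 22.8% lower with harmine and 33.2% and 33.4% with INDY over all genes tested. The list also holds HNRNPA1, the histone chaperone NAP1L1 and TPT1, which are not translation factors. HNRNPA1 was the gene that fell with harmine and was, with NAP1L1, among those that fell with INDY. The other falls with INDY were those of EEF1B2, PABPC1 (-0.43, adjusted p = 3.13e-09) and EIF3L (-0.26, adjusted p = 1.62e-07). NAP1L1, TPT1, PABPC1 and EIF3L are named here after their values were seen. EEF1G, a subunit of elongation factor 1, rose with harmine (0.26, adjusted p = 4.24e-08) and with INDY (0.43, adjusted p = 1.94e-11). EIF4B, an initiation factor, was the other large rise with harmine (0.26, adjusted p = 3.69e-07), and EEF2, the translocase, with INDY (0.35, adjusted p = 1.99e-09). HNRNPA1, an RNA-binding protein, fell with both compounds, from 1421 ± 121 to 1067 ± 15.3 CPM for harmine and 1607 ± 62.2 to 998 ± 161 CPM for INDY (adjusted p = 0.000234 and 3.38e-07). EEF1B2, another subunit of elongation factor 1, fell with INDY from 566 ± 9.94 to 393 ± 17.4 CPM (adjusted p = 1.50e-10).

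Of 15 genes of RNA polymerase I and its factors, which make the rRNA precursor, 3 rose and 2 fell with harmine (median 0.043 on the log2 scale) and 7 rose with INDY while the other 8 did not pass (0.098), beside 24.9% higher and 22.8% lower with harmine and 33.2% and 33.4% with INDY over all genes tested. With harmine the polymerase subunit POLR1H (0.32), the activator UBTF (0.20) and the SL1 subunit TAF1C (0.19) rose (adjusted p = 0.00047, 9.00e-06 and 0.00169). The SL1 subunits TAF1A (-0.19) and TAF1B (-0.14) fell (adjusted p = 0.00788 and 0.00242). The call of TAF1C was lost without harmine replicate 3 (0.15, adjusted p = 0.0172), and that of TAF1A in 5 fits that left out harmine replicate 3 or 4 or water replicate 1, 2 or 3 (-0.20 to -0.17, adjusted p = 0.0136 to 0.022). With library totals TAF1C was not called (adjusted p = 0.0114), nor was TAF1A with limma voom (0.0108) or with the 8 libraries compared (0.0103). With INDY the termination factor TTF1 (0.52) and TAF1A (0.47) rose the most (adjusted p = 2.23e-09 and 4.23e-07).

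Of 29 genes of small nucleolar ribonucleoproteins and rRNA processing, 10 rose and 2 fell with harmine (median 0.037) and 14 rose and 4 fell with INDY (0.12). Over all genes tested 24.9% were higher and 22.8% lower with harmine, and 33.2% and 33.4% with INDY. BOP1, which processes the 60S rRNAs, and NOC4L, an assembly factor of the small subunit, rose the most with harmine (0.48 and 0.36, adjusted p = 4.66e-08 and 1.61e-06), and LTV1, a factor of late 40S assembly, and GAR1, a protein of box H/ACA particles, fell (-0.25 and -0.19, adjusted p = 3.20e-05 and 0.00225). With INDY RIOK2, a kinase of late 40S maturation, went from 12.5 ± 0.477 to 26.0 ± 1.104 CPM (log2 fold change 1.06, SE 0.05, adjusted p = 1.01e-12), and NOP56, a core protein of box C/D particles, from 137 ± 2.83 to 208 ± 13.96 CPM (adjusted p = 6.75e-10). UTP14A and RRP12, which act on the small subunit precursor, fell with INDY (-0.66 and -0.62, adjusted p = 2.35e-09 and 1.07e-11).

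Of 11 chaperones of ribosomal proteins and factors of late subunit maturation, 3 rose and 4 fell with harmine (median -0.0016) and 7 rose and 1 fell with INDY (0.29), beside 24.9% higher and 22.8% lower with harmine and 33.2% and 33.4% with INDY over all genes tested. TSR2, the chaperone of RPS26, rose from 55.4 ± 0.416 to 81.0 ± 1.15 CPM with harmine (adjusted p = 3.80e-11), and MRTO4, which holds the place of the stalk, rose by 0.35 on the log2 scale (adjusted p = 3.45e-06). SBDS, which helps to release EIF6 from the 60S subunit, and EIF6 itself fell with harmine (-0.38 and -0.36, adjusted p = 1.96e-07 and 7.80e-08), and EIF6 also fell with INDY (-0.36, adjusted p = 2.97e-08). LSG1, a GTPase of the cytoplasmic 60S subunit, and GRWD1, the chaperone of RPL3, rose with INDY (0.70 and 0.43, adjusted p = 1.61e-11 and 3.19e-10).

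Of 13 genes of mTORC1 and the control of TOP mRNAs, 4 rose and 2 fell with harmine (median 0.061) and 5 rose and 4 fell with INDY (-0.14). These counts stand beside 24.9% higher and 22.8% lower with harmine, and 33.2% and 33.4% with INDY, of all genes tested. The translation repressor EIF4EBP2 rose with harmine from 55.0 ± 1.64 to 80.8 ± 2.30 CPM (adjusted p = 1.04e-10), as did DDIT4, an inhibitor of mTORC1 (0.51, adjusted p = 0.00124). AKT1S1, an inhibitory partner of mTORC1, and the mTORC1 activator RHEB fell with harmine (-0.20 and -0.16, adjusted p = 0.000142 and 0.00199). With INDY TSC1, a brake on RHEB, and RHEB itself rose (0.45 and 0.29, adjusted p = 1.33e-07 and 1.50e-06), and AKT1S1 and the kinase MTOR fell (-0.34 and -0.32, adjusted p = 1.38e-07 and 7.65e-08).

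Of 8 genes of the MYC and MAX network, 1 rose and 2 fell with harmine (median 0.0017) and 3 rose and 1 fell with INDY (0.11), beside 24.9% higher and 22.8% lower with harmine and 33.2% and 33.4% with INDY over all genes tested. MXD1, a repressor that pairs with MAX, had 11.3 ± 0.916 CPM with water and 8.25 ± 0.769 with harmine (log2 fold change -0.45, SE 0.11, adjusted p = 0.00249), a call lost without harmine replicate 2 (-0.41, adjusted p = 0.0104). With INDY it rose from 10.2 ± 0.703 to 17.8 ± 3.69 CPM (adjusted p = 2.40e-06). With harmine MXD3 rose (0.50) and MXI1 fell (-0.20), with adjusted p = 1.62e-05 and 6.07e-05. With INDY MAX (0.25) and MGA (0.47) rose (adjusted p = 1.44e-07 and 1.51e-08) and MNT fell (-0.14, adjusted p = 0.00734), the last not without DMSO replicate 2, 3 or 4 or INDY replicate 1 or 4 (-0.14 to -0.10, adjusted p = 0.0207 to 0.0441), with TMM factors made without ribosomal protein genes (adjusted p = 0.0104) or with the 8 libraries compared alone (0.0187).

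Of 10 host genes of small nucleolar RNAs, whose spliced RNAs often start with a TOP motif, 4 rose with harmine while the other 6 did not pass (median 0.083) and 8 rose and 1 fell with INDY (0.34), beside 24.9% higher and 22.8% lower with harmine and 33.2% and 33.4% with INDY over all genes tested. With harmine SNHG1 went from 39.9 ± 2.35 to 60.8 ± 1.06 CPM (log2 fold change 0.61, SE 0.042, adjusted p = 7.41e-10), and with INDY it went from 41.6 ± 2.16 to 133 ± 4.08 CPM (log2 fold change 1.68, SE 0.042, adjusted p = 1.87e-16). SNHG7 rose by 0.64 with harmine and 1.08 with INDY on the log2 scale (adjusted p = 4.50e-09 and 1.12e-12). With harmine SNHG5 also rose (0.40, adjusted p = 4.34e-08), as did GAS5 (0.11, adjusted p = 0.00644), whose call was lost on leaving out any harmine library or water replicate 2, 3 or 4 (0.086 to 0.11, adjusted p = 0.018 to 0.0528) and under 5 other scalings or filters (adjusted p = 0.0125 to 0.0886). SNHG16 fell with INDY (-0.25, adjusted p = 1.25e-06). Beside all of these lists stand the medians of 0.015 with harmine and -0.0080 with INDY over all genes tested.

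Of the list genes above, POLR1H (0.21, adjusted p = 0.0192), TAF1B (-0.10, adjusted p = 0.0563), TAF1C (0.16, adjusted p = 0.0242), DDIT4 (0.40, adjusted p = 0.0325), RHEB (-0.13, adjusted p = 0.0278), MXD1 (-0.35, adjusted p = 0.0482) and GAS5 (0.12, adjusted p = 0.0216) were not called with harmine without water replicates 1 and 4. MNT was not called with INDY without INDY replicates 1 and 3 (-0.13, adjusted p = 0.0351).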

How the data were processed

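Stranded poly(A) libraries were sequenced in single reads of 100 bases. The deposited values are estimated counts for genes. Per the methods, the authors ran Salmon 1.1 against GENCODE 37 transcripts with a GRCh38 decoy and summed transcripts to genes with tximport. Estimated counts split reads between similar transcripts, so that values of genes with near-identical copies are uncertain. The counts were rounded, filtered by expression (20446 genes left), scaled by TMM and tested in edgeR 4.0.16 by its quasi-likelihood test in 1 model of the 4 groups, with Benjamini-Hochberg adjustment over all genes and a threshold of 0.01. CPM use the TMM-scaled totals (44301642 to 65889487 counts before scaling). No 2 replicates agreed within sampling noise. Names, lengths and coordinates came from GENCODE 44 (GRCh38), promoters from RefSeq, and shared sequence is the percentage of 100-base stretches of the transcript found in another gene.

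The genes, the lists and the tests were chosen with earlier results of these data known, and the choice supports nothing by itself. Genes named are the 4 largest rises and falls for each compound, all paralogs with their core genes, the 2 widest differences between compounds in each direction, RPS6, RPL5, RPL11 and the stalk genes, the 3 of highest level, those beside the count limit and, of each list, all genes called where 5 or fewer, otherwise the 2 largest changes in each direction. Alternatives were DESeq2 1.42.0, limma 3.58.1 (voom), other scalings and filters, the replicate number as a block, and fits without single libraries or without the libraries that stood apart. The fitting code was tested on simulated data with changes of 0.5 and 1 on the log2 scale. It recovered 80 of 98 and 90 of 100 of them, with 3 false calls. Changes as small as the medians reported here were not simulated. 1 gene of a list is not reported here.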

Additional observations from a re-analysis of the deposited data

Results flagged for a closer look

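A single library stood apart from the other 3 of its group in 4 of the 96 groups examined, by Dixon's ratio, where chance gives about 1 in 20. RPS27 had 619 CPM in water replicate 4 and 669 to 678 in the other water libraries. RPL22 had 366 CPM in DMSO replicate 1 and 359 to 360 in the others. RPL41 had 1813 CPM in INDY replicate 1 and 1975 to 1998 in the other INDY libraries, and RPLP1 had 1889.8 against 2023 to 2030 there.

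The effect of harmine minus that of INDY was called in 8 of the named genes, where 28.1% of all genes tested were called above 0 and 26.4% below. Over all 82 genes 6 were called above 0 (7.3%) and 10 below. Named genes were chosen in part for their called effects and widest differences, which favours the count of 8. It was -0.52 on the log2 scale for RPL22L1, -0.49 for RPL7L1, -0.34 for RPL10 and -0.24 for RPL22. It was 0.35 for RPS27L, 0.29 for RPL26L1, 0.26 for RPL39L and 0.24 for RPS12. The compounds were given at unequal doses in different vehicles.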

How the results depend on the processing

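The counts of ribosomal protein genes called stayed within 1.5 times of those reported for harmine (35 to 54 higher) and INDY (50 to 67 higher) under every scaling, filter, tool and threshold tried other than a minimum fold. With a change of at least 1.5-fold, 1 gene was called for harmine and 1 for INDY, and 0 for the difference between the compounds and 0 for DMSO against water, since no called difference there reached that size. An adjusted p under 0.05 called 28 differences between the compounds (10 above, 18 below) and 8 genes for DMSO against water. DESeq2 called 6 genes for DMSO against water and 22 differences between the compounds (6 above, 16 below), and without water replicates 1 and 4 edgeR called 0 for DMSO against water. Leaving out 1 library gave 40 to 45 genes for harmine, 53 to 68 for INDY, 12 to 22 differences and 1 to 4 genes for DMSO against water. Apart from the 1.5-fold counts of harmine and INDY, no share over all genes is given for these alternatives.

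Over 2264 further values of 110 named results, 2127 kept their direction and side of the threshold, 111 lost and 12 gained a call, and no called value changed sign. The sign turned in RPL7L1 with harmine, which was not called: -0.0029 with DESeq2, -0.0028 with its size factors in edgeR, -0.0073 with TMM without ribosomal protein genes, -0.038 with library totals, -0.013 with no filter, -0.0055 with the 8 libraries compared, -0.0087 with upper-quartile factors, and -0.015 to 0.021 without single libraries. RPS27 with INDY was -0.0011 with library totals. The summed share moved to 7.78% (water), 8.35% (harmine), 8.03% (DMSO) and 8.75% (INDY) with protein-coding nuclear genes as denominator, and to 7.49% (water), 7.999% (harmine), 7.72% (DMSO) and 8.41% (INDY) with pseudogenes named after these genes added. The causes were not tested. With the replicate block, 47, 58, 13 and 3 genes were called for harmine, INDY, the difference and DMSO against water, with no share over all genes given. Among named genes it ended the calls of RPL11 (adjusted p = 0.0212) and GAS5 (0.0101) with harmine, of RPLP1 with INDY (0.0236) and of the difference in RPL26L1 (0.0101). Libraries of the same replicate number did not deviate together (correlations -0.053 to 0.087, with 0 of 12 pairs over 0.1), so that the number was not taken as a pairing.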
